A study of Homo sapiens with 24 samples.

Results

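Cytokinesis is the last step of cell division, in which one cell is cut into daughter cells. Here 6 genes of this step were followed in LNCaP, an androgen-responsive line derived from a lymph node metastasis of prostate cancer: ECT2, RACGAP1, ANLN, CIT, CEP55 and SHCBP1. They were found through the RefSeq accession of their probes, and they were selected with results of these arrays known, on their lower signal after knockdown of the long non-coding RNAs TAPIR-1 and TAPIR-2. The levels and their differences from control siRNA are therefore given as a description. The 6 genes were 6 of 41069 genes on the array version used at 24 h and of 47753 on that used at 48 h, and 8 probes measured them.

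The cells were transfected with a scrambled control siRNA (si-SCRL), with 1 siRNA to TAPIR-1 (si-A1) or with 1 siRNA to TAPIR-2 (si-A2), and total RNA was taken after 24 h or 48 h. Each of the 6 groups had 4 biological replicates on 1-colour Agilent arrays, 24 arrays in all. The si-A2 array of replicate 2 at 48 h was much dimmer than the others and was left out, which left 23. Each knockdown rests on 1 siRNA sequence, and no group of untransfected cells was analysed here. At each time replicates 1 and 2 lay on one slide and replicates 3 and 4 on another. The median processed intensity was 24.37 to 57.2 at 24 h and 20.37 to 32.25 on the arrays used at 48 h, against 13.95 on the dim one. All 9 markers of luminal prostate cells examined were well above background, as the scanner software marks a spot, on every array. Of 3 basal markers KRT5 was so on none and KRT14 on at least some arrays of every group, its brightest probe with group means of 3.92 to 4.73 on the log2 scale. Of 6 markers of stroma, endothelium or leukocytes, 4 were well above background on every array at 24 h and 3 at 48 h, among them CDH5 (group means 7.79 to 9.96) and CD3E (5.98 to 6.9), while the collagen COL1A2 was so on none. A marker was counted by its best probe. Some other probes of PTPRC and PECAM1 were not well above background, with si-A2 means at 24 h as low as 1.72 and 2.40. All arrays are labelled as the LNCaP line, and what the signals of these other markers stand for was not tested. Of the targets themselves, a TAPIR-2 probe differed from si-SCRL by -0.98 ± 0.33 (log2, SE) in the si-A2 group at 24 h and by 0.23 ± 0.26 at 48 h, and by -0.40 ± 0.33 and 0.18 ± 0.24 in the si-A1 group. Another TAPIR-2 probe, matched at 48 h only, had -0.59 ± 0.53 (si-A2) and -0.78 ± 0.48 (si-A1). It was well above background on none of the arrays used. No probe was matched to TAPIR-1, so the groups are named as labelled.

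Cytokinesis begins when microtubules between the separating chromosomes bundle into the central spindle. There the centralspindlin complex recruits a RhoA exchange factor, and active RhoA assembles a ring of actin and myosin at the cell equator. The ring closes onto the midbody, a thin bridge that ESCRT proteins finally cut. ECT2 is the exchange factor that activates RhoA. RACGAP1 is the GTPase-activating subunit of centralspindlin and docks ECT2. ANLN encodes anillin, a scaffold that ties RhoA, actin, myosin and septins together in the ring. CIT encodes citron kinase, which organises the midbody. CEP55 brings ESCRT proteins to the midbody, and SHCBP1 is a partner of centralspindlin at the same place. In many cell types such genes are transcribed late in the cell cycle and repressed in resting cells by the DREAM complex, which binds promoters at the cell cycle genes homology region (CHR), at E2F sites and next to CCAAT boxes.

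The promoters are shown first. The genes and the motifs were chosen with results of these arrays known, and a link between motifs and differences was not tested. RefSeq windows from 250 bases before to 50 bases after the transcript start (GRCh38.p14) were found for 5 of the 6 genes, in 6 windows since ECT2 has a window for each of 2 starts. RACGAP1 was not matched. The CHR letters TTTGAA, read on both strands, were in a window of 5 of these 5 genes, and 15.2% of all 35116 promoter windows of this length hold them. In ANLN 2 copies, 1 on each strand, lay side by side from base -26 to base -15 before the start. The 150 bases before the start are printed for the 3 genes in which a CHR match lies in that stretch, with CHR and CCAAT matches in capitals. All 3 lie on the plus strand, ANLN at chr7:36389712-36389861, ECT2 (its first start) at chr3:172750576-172750725 and CEP55 at chr10:93496462-93496611.
ANLN: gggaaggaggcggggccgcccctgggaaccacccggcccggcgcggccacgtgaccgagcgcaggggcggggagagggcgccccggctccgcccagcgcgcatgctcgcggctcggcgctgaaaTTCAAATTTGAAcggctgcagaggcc
ECT2: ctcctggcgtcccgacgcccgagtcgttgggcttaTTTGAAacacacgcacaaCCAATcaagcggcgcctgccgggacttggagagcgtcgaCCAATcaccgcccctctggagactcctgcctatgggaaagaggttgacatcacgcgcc
CEP55: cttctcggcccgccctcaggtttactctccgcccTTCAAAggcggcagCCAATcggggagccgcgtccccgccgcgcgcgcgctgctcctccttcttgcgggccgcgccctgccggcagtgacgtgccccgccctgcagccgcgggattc

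In CEP55, CIT and SHCBP1 a CHR match lay at or just after the start, and it is shown with 10 bases on each side, read along the gene. ECT2 also had a match after its first start, at bases 35 to 40, not shown. The same site lies at bases -242 to -237 of its second window. That window held another match at bases -182 to -177, and CIT held an upstream match at bases -208 to -203, neither shown. Of those shown, the CEP55 match spans base -3 to base 3, the CIT match (minus strand, chr12:119877295-119877320) bases 11 to 16, and the SHCBP1 match (minus strand, chr16:46621350-46621375) bases 15 to 20. Only the CHR letters are in capitals.
CEP55 at the start: agccgcgggaTTCAAActcccggaag
CIT: gttcctcgggTTCAAAcgcggcggcg
SHCBP1: tccgcggaaaTTTGAAatggctgacg

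The CCAAT letters were in a window of 4 of the 5 genes, ECT2, CIT, CEP55 and SHCBP1, and in 34.6% of all windows. The E2F letters TTCCCGC were found in CEP55 alone, at bases -185 to -179 (6.55% of all windows), and the variant TTGGCGC in ECT2 alone, where it overlaps a CCAAT match at the first start (3.04% of all windows). The CHR variant TTCGAA, which reads the same on both strands, was in SHCBP1 at bases -214 to -209 (1.45% of all windows). A match is only a run of letters in the reference, and protein binding was not measured.

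**Figure D1:**
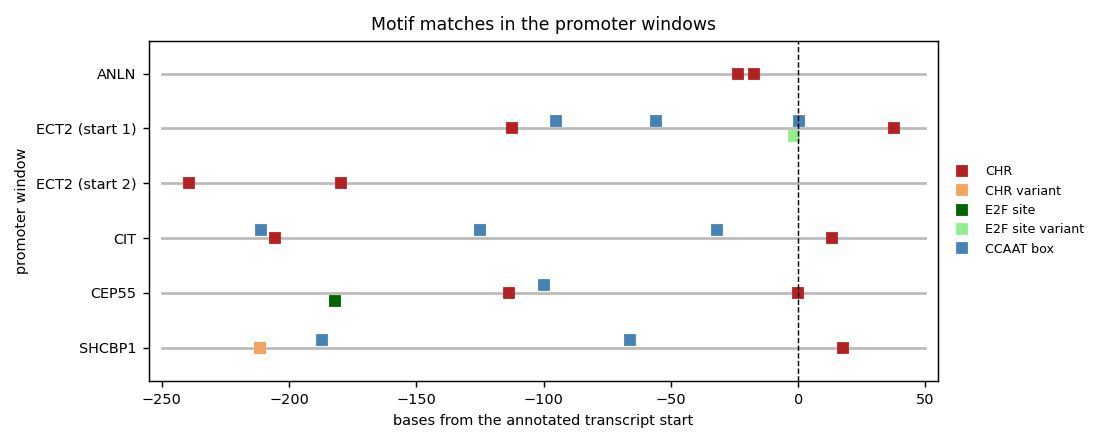
Positions of motif matches in the 6 RefSeq promoter windows of 5 genes. The x axis is the distance from the annotated transcript start in bases, each grey line is 1 window and each square 1 match, coloured by motif. The windows of ECT2 overlap, so a CHR site in the overlap is drawn on both lines. Red squares, the CHR letters, are on every line, and the 2 adjacent ones of ANLN are at bases -26 to -15.

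Levels are quantile-normalized log2 intensities, on which a difference of 1 is 2-fold, and arrays are given in the order of replicates 1 to 4 (1, 3 and 4 for si-A2 at 48 h). Differences come from a linear model with the slide as a term, are written with their SE, and rest on 4 arrays per group (3 for si-A2 at 48 h). A gene is called where the difference is 0.5 or more in size with an adjusted p under 0.01. In RNA from whole cultures, fewer cells expressing a gene and less RNA per cell cannot be told apart.

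**Figure D2:**
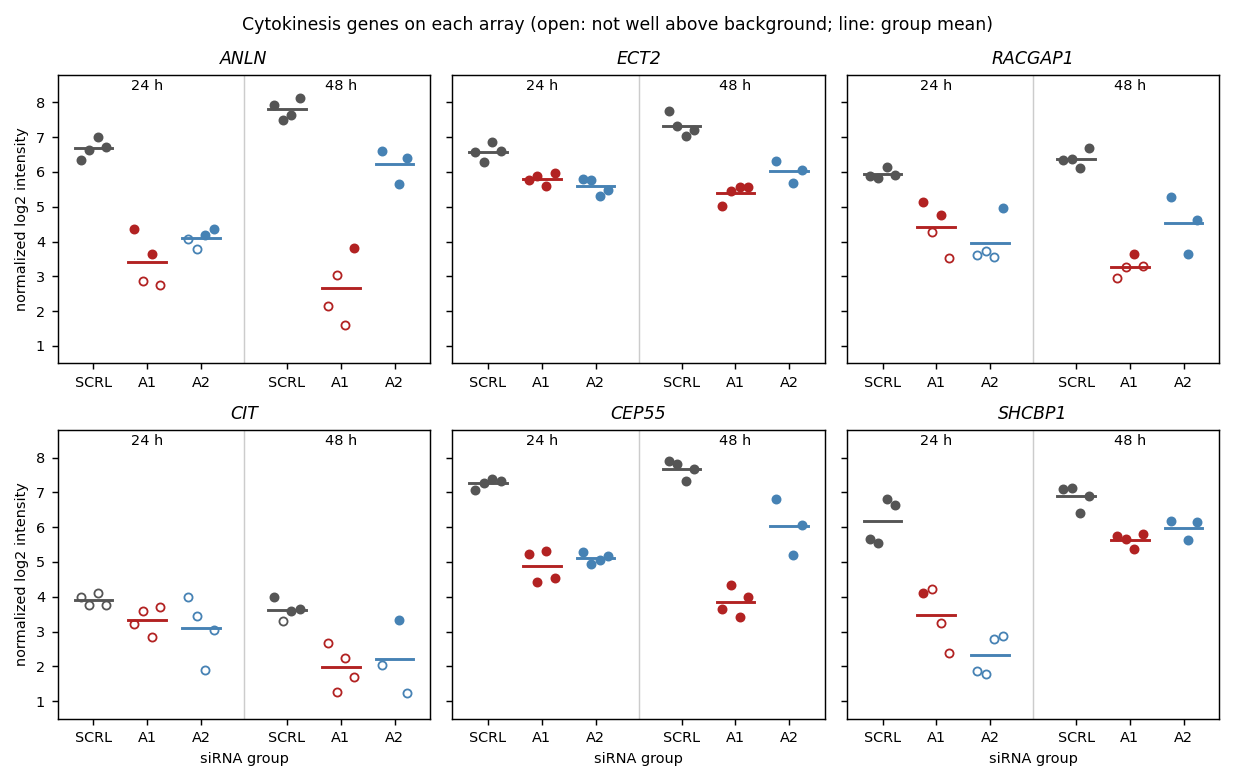
Normalized log2 intensity (y axis) of the probe used for each gene on every array, by siRNA group (x axis) at 24 h and 48 h. Points are arrays, open where the spot was not well above background, and lines are group means. Every si-A1 point lies below every si-SCRL point of the same time for all 6 genes, and SHCBP1 after si-A2 is open on 4 of 4 arrays at 24 h and filled on 3 of 3 at 48 h.

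At 24 h ECT2, the activator of RhoA, read 6.58, 6.29, 6.87 and 6.60 in si-SCRL, 5.78, 5.89, 5.59 and 5.96 in si-A1, and 5.81, 5.77, 5.30 and 5.48 in si-A2. Both knockdown groups lay below all control arrays, with fitted differences of -0.78 ± 0.25 (si-A1) and -1.0 ± 0.25 (si-A2), and neither was called. Within the slides the si-A2 difference was -0.65 and -1.35. At 48 h ECT2 read 7.74, 7.31, 7.02 and 7.20 in si-SCRL, 5.01, 5.46, 5.56 and 5.57 in si-A1, and 6.32, 5.68 and 6.05 in si-A2. The groups were again separate from the controls, with fitted differences of -1.92 ± 0.22 (3.78-fold lower, called) after si-A1 and -1.28 ± 0.24 (2.43-fold lower, not called) after si-A2. ECT2 was well above background on all 23 arrays.

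RACGAP1 at 24 h read 5.89, 5.84, 6.15 and 5.92 in si-SCRL, 5.14, 4.27, 4.75 and 3.53 in si-A1, and 3.61, 3.72, 3.57 and 4.96 in si-A2. No knockdown array reached a control array. The si-A2 array of replicate 4 stood apart from its group, whose other 3 spots were not well above background. The fitted differences were -1.52 ± 0.40 and -1.98 ± 0.40, not called. At 48 h RACGAP1 read 6.33, 6.36, 6.10 and 6.68 in si-SCRL, 2.94, 3.26, 3.63 and 3.30 in si-A1, and 5.29, 3.64 and 4.63 in si-A2. The groups followed each other without overlap, with differences of -3.08 ± 0.33 (8.47-fold lower, called) after si-A1 and -1.83 ± 0.36 (3.55-fold lower, not called) after si-A2. The si-A1 spot was well above background on 1 of 4 arrays, and within the slides the si-A2 difference was -1.06 and -2.26.

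ANLN, the scaffold of the ring, had the largest si-A1 difference from control among the 6 genes at both times. At 24 h it read 6.34, 6.63, 7.0 and 6.73 in si-SCRL, 4.36, 2.86, 3.63 and 2.75 in si-A1, and 4.07, 3.79, 4.20 and 4.35 in si-A2. All knockdown arrays were below all control arrays, and both differences were called, at -3.28 ± 0.36 (9.68-fold lower) and -2.58 ± 0.36 (5.96-fold lower). At 48 h it read 7.93, 7.50, 7.65 and 8.12 in si-SCRL, 2.16, 3.05, 1.6 and 3.81 in si-A1, and 6.61, 5.64 and 6.41 in si-A2. After si-A1 the difference was -5.14 ± 0.46 (called), with 1 of 4 spots well above background, so its 35.3-fold size rests partly on dim spots. After si-A2 it was -1.57 ± 0.50 (2.98-fold lower, not called), although all 3 arrays lay below the controls.

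CIT, the citron kinase gene, was dim throughout. At 24 h its brighter probe was well above background on none of the 12 arrays, at 3.75 to 4.10 in si-SCRL, 2.85 to 3.71 in si-A1 and 1.89 to 3.98 in si-A2, so no fold is given. The second probe was well above background on 1 si-SCRL array, where the group read 3.84, 3.58, 3.57 and 4.10. It lay at 1.84 to 2.03 in si-A1 and 1.91 to 2.08 in si-A2, at least 1.13-fold and 1.06-fold lower. At 48 h the brighter probe read 4.00, 3.29, 3.58 and 3.64 in si-SCRL, 2.68, 1.25, 2.25 and 1.70 in si-A1, and 2.04, 3.33 and 1.24 in si-A2. The si-A1 level was at least 1.35-fold lower, and the si-A2 arrays overlapped the controls. The second probe read 4.49, 4.06, 3.48 and 3.02 in si-SCRL against 1.18 to 1.23 in si-A1 and 1.15 to 2.05 in si-A2, at least 1.47-fold and 1.35-fold lower. Such bounds, here and below, set the control mean against the lowest signal that counted as well above background on the scale used. Where the dim probe's own value was higher, it was taken instead. The bounds need not hold under another correction, as CIT differed by -0.15 after si-A1 at 48 h under normexp background correction. No difference of the brighter CIT probe was called, and the second was not tested. With the median over both probes as the level of the gene, CIT was called lower after si-A1 at 48 h (-2.1).

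CEP55, which recruits ESCRT proteins to the midbody, was well above background on all 23 arrays with its brighter probe. At 24 h it read 7.07, 7.27, 7.39 and 7.32 in si-SCRL, 5.23, 4.41, 5.32 and 4.53 in si-A1, and 5.30, 4.93, 5.07 and 5.16 in si-A2. Controls and knockdowns were far apart, and the differences of -2.39 ± 0.28 (5.24-fold lower) and -2.15 ± 0.28 (4.43-fold lower) were both called. At 48 h it read 7.91, 7.81, 7.33 and 7.68 in si-SCRL, 3.66, 4.33, 3.41 and 3.99 in si-A1, and 6.82, 5.19 and 6.06 in si-A2. After si-A1 CEP55 was 14.3-fold lower (-3.84 ± 0.28, called), and after si-A2 2.96-fold lower (-1.57 ± 0.31, not called). None of the spots of its other probe was well above background.

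SHCBP1, the centralspindlin partner, at 24 h read 5.65, 5.54, 6.82 and 6.64 in si-SCRL, 4.10, 4.21, 3.24 and 2.39 in si-A1, and 1.87, 1.77, 2.79 and 2.88 in si-A2. None of the 4 si-A2 spots was well above background, which makes SHCBP1 at least 5.53-fold lower there on the scale used (called). Under normexp background correction the si-A2 difference was -1.10. After si-A1, with 1 of 4 spots well above background, the fitted difference was -2.68 ± 0.46 (called) and -0.87 under normexp background correction. It was -1.44 on one slide and -3.91 on the other, and over 23 alternative settings it stayed called in 11. At 48 h SHCBP1 read 7.10, 7.13, 6.42 and 6.90 in si-SCRL, 5.74, 5.67, 5.36 and 5.79 in si-A1, and 6.17, 5.62 and 6.15 in si-A2. All 11 spots were then well above background, and the differences were -1.25 ± 0.19 (2.38-fold lower, called) and -0.86 ± 0.21 (1.81-fold lower, not called).

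**Figure D3:**
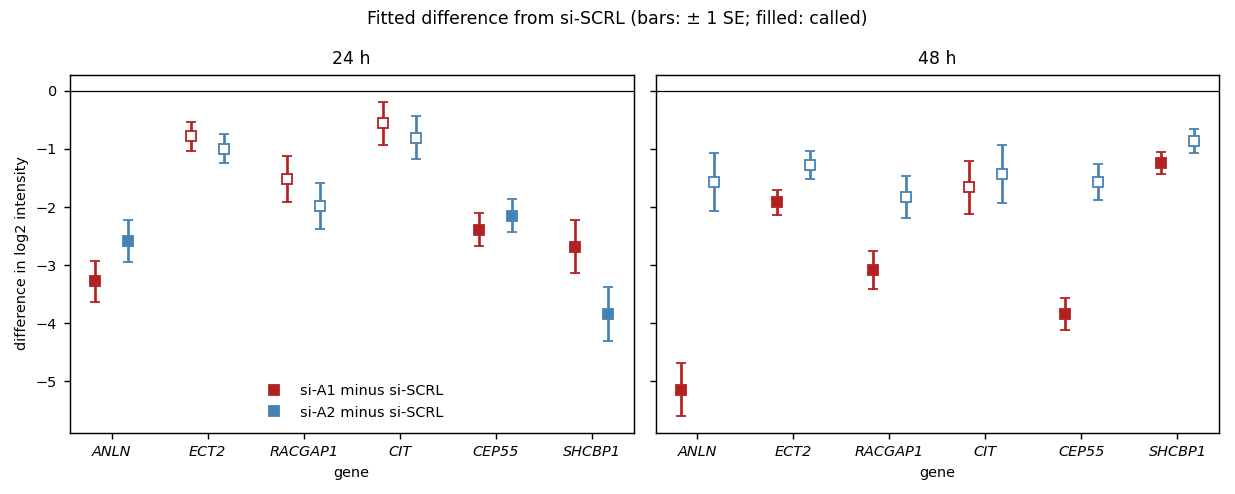
Fitted difference from si-SCRL in log2 intensity (y axis) for the 6 genes (x axis) at 24 h and 48 h, si-A1 in red and si-A2 in blue. Bars are 1 SE on each side and filled squares are called. All 24 differences are below 0, the lowest being ANLN after si-A1 at 48 h (-5.14). The CIT values at 24 h and those of groups not well above background (SHCBP1 with si-A2 at 24 h, CIT with si-A1 at 48 h) are fitted values of dim spots, not bounds.

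In counts, the si-A1 arrays at 24 h had 3 of the 6 genes called lower (ANLN, CEP55 and SHCBP1), where 1.38% of the 15186 genes tested were called lower and 0.0461% higher. The same 3 were called lower after si-A2 at 24 h, beside 1.38% lower and 0.0329% higher of all genes. At 48 h the si-A1 count was 5 of 6, all but CIT, beside 6.3% lower and 2.51% higher of 17479 genes. After si-A2 at 48 h limma called 0 of 6, beside 0.189% lower and 0.0458% higher, while 6 of 6 had an unadjusted p under 0.05 against 17.7% of all genes tested. On each slide the mean of every knockdown group lay below that of si-SCRL for all 6 genes with their brighter probe. For si-A2 at 48 h the slide of replicates 1 and 2 held replicate 1 only. With the dim array kept in the fit, the si-A1 count at 48 h was 0. As these are the contrasts on which the genes were selected, nothing is read from the counts or from the slide means. Median differences of the 6 genes were -1.96 and -2.06 at 24 h and -2.5 and -1.50 at 48 h (si-A1 and si-A2), where the medians of all genes above background lay between 0.01 and 0.06.

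The arrays also allow the 2 siRNAs to be set against each other, a comparison that shares the knockdown arrays with those above. The genes were selected on low signal of those knockdown arrays, so nothing is read from the counts of this comparison. The control arrays still enter the normalization, the filters, the choice of probe and the estimates of spread and of the slide. At 24 h no member was called between si-A2 and si-A1 by limma (0 of 6), beside 0.112% of all genes tested, and 1 of 6 had an unadjusted p under 0.05, beside 13% of all. The si-A2 minus si-A1 difference was 0.70 for ANLN (95% interval -0.07 to 1.47, limma adjusted p = 0.441) and 0.24 for CEP55 (-0.36 to 0.84, adjusted p = 0.805). It was -0.22 for ECT2 (-0.76 to 0.33, adjusted p = 0.807) and -0.46 for RACGAP1 (-1.31 to 0.40, adjusted p = 0.723). For SHCBP1 it was -1.16 (-2.16 to -0.16, adjusted p = 0.289), with 1 of 8 spots well above background. On one slide that difference was -2.34 and on the other 0.02.

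At 48 h ANLN and CEP55 stood higher in si-A2 than in si-A1, and these were the 2 of 6 members called, beside 1.61% of all genes tested. The si-A1 arrays are among those on whose low signal the genes were selected, so nothing is read from this count. The ANLN difference was 3.57 ± 0.50 (95% interval 2.45 to 4.69, limma adjusted p = 0.0057), and all 3 si-A2 arrays lay above all 4 si-A1 arrays, of which 1 was well above background. Within the slides it was 4.00 and 3.31. The CEP55 difference was 2.27 ± 0.31 (1.58 to 2.96, limma adjusted p = 0.00539), also without overlap, and 2.83 and 1.93 within the slides. RACGAP1 (1.25, interval 0.45 to 2.06, adjusted p = 0.0695) and ECT2 (0.64, 0.10 to 1.18, adjusted p = 0.153) had the same direction without overlap and were not called. SHCBP1 (0.39, -0.07 to 0.85, adjusted p = 0.321) overlapped, as did CIT, whose levels were mostly below background. With the replicate number as a block in place of the slide, the differences were 3.58 for ANLN and 2.28 for CEP55 and neither was called. Under normexp background correction they were 0.99 and 0.90, both called. Over 23 alternative settings ANLN stayed called in 11 and CEP55 in 10, while both kept their direction in 23 of 23. With the dim si-A2 array kept, 0 of 6 were called.

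**Figure D4:**
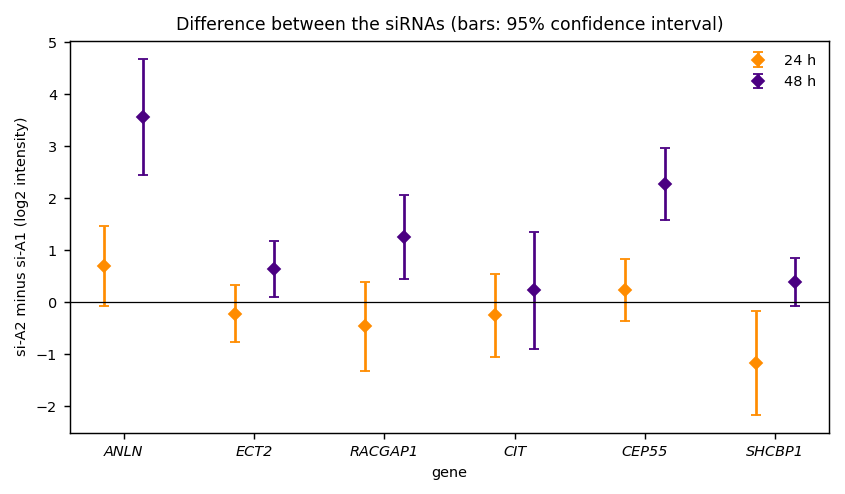
Difference in log2 intensity between si-A2 and si-A1 (y axis) for the 6 genes (x axis), at 24 h in orange and 48 h in purple. Diamonds are fitted differences and bars their 95% confidence intervals. At 48 h the intervals of ANLN (2.45 to 4.69) and CEP55 (1.58 to 2.96) lie farthest above 0.

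An interaction term, fitted over 30260 genes, tested whether a difference from control had another size at 48 h than at 24 h. No member was called by limma, where 0.165% of all genes were called for si-A1 and 0.0463% for si-A2. At an unadjusted p under 0.05 there were 5 of 6 members for si-A1, beside 3845 of the 30260 genes, and 1 of 6 for si-A2, beside 2214 of 30260. The interaction is built from the contrasts on which the genes were selected, so nothing is read from these counts. For si-A1 the difference from control at 48 h minus that at 24 h was -1.15 ± 0.26 for ECT2 (adjusted p = 0.0486), -1.32 ± 0.35 for CEP55 (adjusted p = 0.0925), -1.27 ± 0.55 for RACGAP1 (adjusted p = 0.34) and -1.32 ± 0.58 for ANLN (adjusted p = 0.341). For SHCBP1 it had the opposite sign, at 1.66 ± 0.56 (adjusted p = 0.197). After si-A2 the interaction was 3.30 ± 0.58 for SHCBP1 (adjusted p = 0.0386), while the other 5 genes had values of -0.33 to 1.12 with adjusted p from 0.757 to 0.944. The times were run on different array versions, so time and version cannot be told apart in a level. In this test all SHCBP1 spots of si-A2 at 24 h were dim. Under normexp background correction the SHCBP1 interaction was 0.58 for si-A2 and 0.16 for si-A1. The part of dim spots in these values was not tested.

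Around these 6 genes, 66 other genes of cytokinesis were listed by role, chosen like the members with earlier results of these arrays known. Those of the central spindle lay lowest. At 24 h, 3 (si-A1) and 7 (si-A2) of its 11 genes were called lower, and at 48 h 8 and 3 of the 10 with a probe above background. Their medians were -1.32, -1.50, -2.61 and -1.57 in that order, and none was called higher. PRC1, which bundles the antiparallel microtubules, was called in 3 comparisons, with -1.54 ± 0.27 (si-A2 at 24 h), -2.74 ± 0.20 (si-A1 at 48 h) and -1.86 ± 0.21 (si-A2 at 48 h). KIF23, the motor subunit that pairs with RACGAP1 in centralspindlin, was called only after si-A1 at 48 h (-1.05 ± 0.17), with -0.47 ± 0.23 and -0.60 ± 0.23 at 24 h and -0.63 ± 0.18 after si-A2 at 48 h. The kinesins KIF20A (-3.29 ± 0.22 and -1.87 ± 0.24, both siRNAs called at 48 h) and KIF4A (-1.36 ± 0.24 after si-A2 at 24 h and -3.60 ± 0.32 after si-A1 at 48 h) carry regulators to the midzone. KIF20B (-2.58 ± 0.22) and KIF14 (-2.14 ± 0.24), which localises citron kinase, were called lower after si-A1 at 48 h, and KIF14 was at least 4.5-fold lower after si-A2 at 24 h.

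The chromosomal passenger complex, which moves to the central spindle in anaphase, had its 4 genes called in at least 1 comparison. AURKB, its kinase, was called at 24 h (-1.68 ± 0.27 and -1.74 ± 0.27) and not at 48 h (-0.77 ± 0.23 and -0.38 ± 0.25), and CDCA8, a targeting subunit, likewise (-1.43 ± 0.24 and -1.51 ± 0.24, then -0.89 ± 0.21 and -0.72 ± 0.23). BIRC5, survivin, was called in 3 of the 4 comparisons, with -2.07 ± 0.22 and -1.89 ± 0.22 at 24 h and -3.72 ± 0.30 after si-A1 at 48 h. INCENP, the scaffold, was not well above background after si-A2 at 24 h or after either siRNA at 48 h, and was at least 1.64-fold, 3.6-fold (si-A1) and 3.31-fold (si-A2) lower there. A test of the difference between the 2 times was not made for these genes.

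The other roles, whose proteins the cell also uses outside division, had medians between -0.40 and 0.08 over the 4 comparisons, with single genes from -1.37 to 1.0. Most of these genes varied too little over the arrays to be tested. Those tested at 24 h were 4 of 15 genes of RhoA and the ring, 4 of 7 septins, 2 of 23 genes of ESCRT and abscission and 1 of 10 of membrane traffic, and at 48 h 6, 3, 6 and 3. Among 15 genes of RhoA and the actomyosin ring none was called at 24 h, with medians of -0.03 and 0.04, and RHOA itself differed by 0.09 ± 0.20 and 0.12 ± 0.20, and at 48 h by -0.09 ± 0.13 and -0.15 ± 0.14. At 48 h after si-A1 the formins DIAPH3 (-1.37 ± 0.15) and DIAPH1 (-0.71 ± 0.15), which elongate actin filaments, were called lower. DIAPH1 was read with another probe at 24 h, which had -0.08 ± 0.12 and -0.05 ± 0.12 and was not tested. Of 7 septins, filament-forming GTPases of the cortex, SEPTIN8 was called lower (-0.96 ± 0.18) and SEPTIN6 higher (0.71 ± 0.13) after si-A1 at 48 h, and SEPTIN8 had -1.25 ± 0.27 after si-A1 at 24 h, not called. SEPTIN7 had -0.43 ± 0.24 and -0.89 ± 0.24 at 24 h and -0.64 ± 0.15 and -0.65 ± 0.16 at 48 h, not called. Among 23 genes of ESCRT and abscission only VPS25 was called, lower after si-A1 at 48 h (-0.66 ± 0.12). PDCD6IP, the ALIX protein that CEP55 binds, differed by -0.37 ± 0.32 and 0.19 ± 0.32 at 24 h and, with another probe, by -0.69 ± 0.23 and -0.56 ± 0.25 at 48 h, not called. VPS4A, the ATPase that disassembles ESCRT filaments, had 0.28 ± 0.19 and 0.19 ± 0.19 at 24 h and -0.22 ± 0.09 and -0.14 ± 0.10 at 48 h. None of 10 genes of membrane traffic to the bridge was called.

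**Figure D5:**
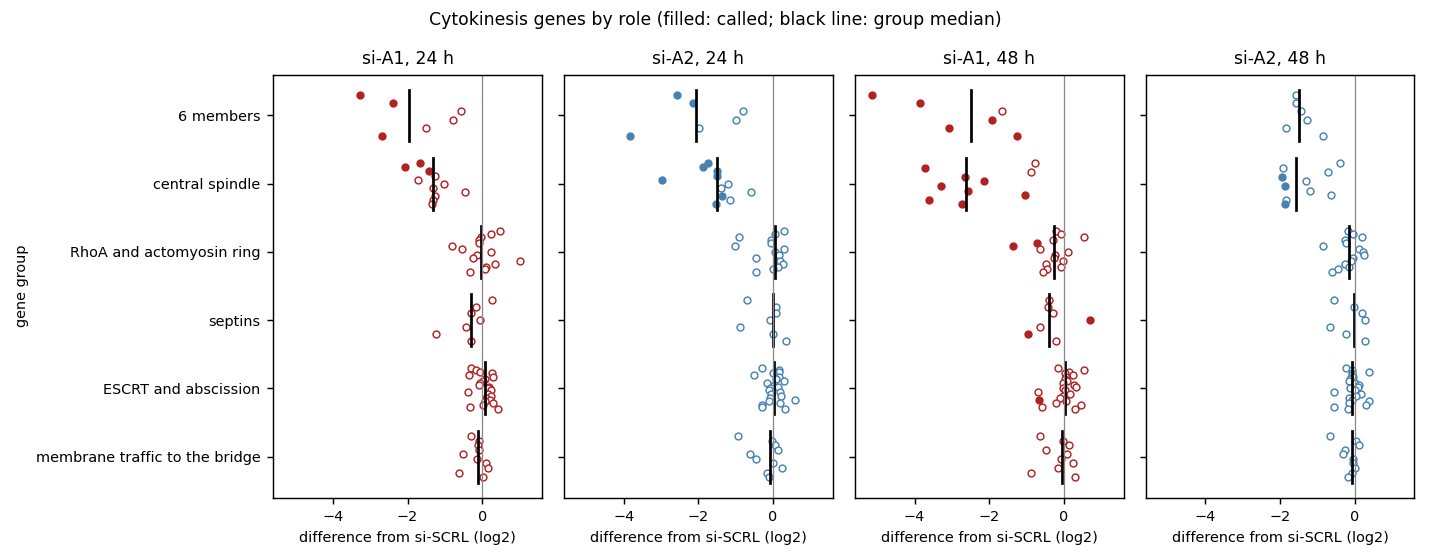
Difference from si-SCRL in log2 intensity (x axis) of the 6 members and the 66 other cytokinesis genes, grouped by role (y axis), in the 4 comparisons. Each point is 1 gene, filled where called, and black lines are group medians. The members and the central spindle genes have medians of -1.32 or lower in every panel, and the medians of the other roles lie between -0.40 and 0.08.

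Markers of cycling cells were read beside the members. TOP2A, the topoisomerase of dividing cells, differed from si-SCRL by -1.67 ± 0.15 and -1.89 ± 0.15 at 24 h and by -3.45 ± 0.21 and -1.83 ± 0.23 at 48 h (si-A1 and si-A2). The brightest MKI67 probe, for the Ki-67 antigen, differed by -1.07 ± 0.14, -1.06 ± 0.14, -1.05 ± 0.19 and -0.53 ± 0.21 in the same order. The MKI67 probes disagreed in size. A dimmer one, well above background on all arrays, had -2.78 ± 0.25, -2.28 ± 0.25, -3.11 ± 0.25 and -1.76 ± 0.28, and the dimmest, well above background on all si-SCRL arrays, had -2.88 ± 0.45, -2.55 ± 0.45, -3.75 ± 0.25 and -2.18 ± 0.27. The part of the share of cycling cells in the members' values was not tested.

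The 3 genes with the most similar set of 4 differences from si-SCRL were found for each member among 17802 named genes, by the root mean square difference on the log2 scale. For CEP55 they were KIFC1, a mitotic kinesin, CDK1, the mitotic kinase, and MELK (0.16 to 0.27). For RACGAP1 they were H2BC7, ASPM and PCLAF (0.08 to 0.16), and for ANLN SKA1, ESCO2 and SPC25 (0.47 to 0.60). ECT2 was closest to the histone genes H4C5 and H1-3 and to TIMELESS (0.15 to 0.17), and CIT to MT2A, CDC25B and H1-3 (0.13 to 0.17), though the CIT values that were matched come mostly from spots not well above background. SHCBP1 was closest to WDR76, then POLE2, a subunit of a replicative polymerase, and MCM10, a replication initiation factor (0.34 to 0.77). WDR76 had -2.64 and -3.23 at 24 h and -1.43 and -0.60 at 48 h, against -2.68, -3.84, -1.25 and -0.86 fitted for SHCBP1 in the same order.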

How the data were processed

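Samples were assigned to siRNA, time and replicate from their labels. The authors deposited the scanner output of Agilent Feature Extraction 11.5.1.1, whose processed signal is an intensity with the background subtracted, and normalized log2 values of each time point, used as an alternative. The authors' processing notes name R 3.4.3 and limma 3.34.8.

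Here log2 processed intensities were quantile-normalized over the 12 arrays at 24 h and 11 at 48 h (the dim si-A2 array left out), control and flagged spots were dropped and repeat spots averaged. A probe was above background if, on 3 or more arrays, it lay more than 3 SDs over the mean of the 308 negative control spots, and was tested if its interquartile range was at least 0.5. The brightest such probe stood for a gene. Probes were named through RefSeq accessions (57.4% and 53.4% of probes matched). "Well above background" is the scanner software's own mark per spot. Limma 3.58.1 in R 4.3.3 (data.table package version 1.17.8, statmod 1.5.0) fitted the 3 groups of a time with the slide as a term, and Benjamini-Hochberg adjustment ran over all genes tested. The interaction used 23 arrays normalized together, the genes above background at both times and no interquartile filter. The code was tested on simulated data. The number of arrays and the signal over background limit the precision.

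The members, the lists of other cytokinesis genes and the motifs were chosen with earlier results of these data known. The genes named are all members, other listed genes called in a comparison against si-SCRL, and KIF23, PRC1, AURKB, RHOA, PDCD6IP, VPS4A and SEPTIN7 whatever their values, the 3 most similar genes of each member, MKI67 and TOP2A.

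At 48 h arrays with the same replicate number deviated together from their group means (r = 0.19 to 0.35 in 10 of 10 pairs, each array correlating best with its own number). This pairing comes from the data. The fits reported kept the slide as the term, and the replicate number was a block only in an alternative setting. Replicate numbers 1 and 2 share a slide, as do 3 and 4.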

Additional observations from a re-analysis of the deposited data

Results flagged for a closer look

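For RACGAP1 in the si-A2 group at 24 h, replicate 4 read 4.96 (normalized log2 intensity), far from the nearest of the other arrays at 3.72. The gap was 0.896 of the range of the group. Of 30 groups of 4 arrays examined for the members, this was the 1 with such an array, and about 1 group in 20 is expected to show one by chance. Without that array the RACGAP1 difference from si-SCRL was -2.32 on the log2 scale and called, against -1.98 and not called with it.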

How the results depend on the processing

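All differences from si-SCRL of the 6 members kept their direction in the 23 alternative settings per comparison, 552 of 552 values. The genes were selected on these differences, so nothing is read from that count. Some values were near 0, as for CIT at 24 h under normexp background correction (-0.05 after si-A1 and -0.03 after si-A2). Normexp background correction (offset 50) gave smaller values (ANLN after si-A1 at 48 h to -2.03, SHCBP1 after si-A2 at 24 h to -1.10) and called 4 members after si-A2 at 48 h. The filter on spots well above background called 1 there. With the dim si-A2 array kept, 0 members were called after si-A1 at 48 h and 0 between the siRNAs. Between si-A2 and si-A1 at 48 h the count of 2 became 1 without a slide term, 0 with only the groups compared and 0 with the replicate block, and ranged from 0 to 2 when single arrays were left out, at 0 with replicate 1, 2 or 4 of si-SCRL, replicate 1, 2 or 3 of si-A1 or replicate 1 or 4 of si-A2 left out. The replicate block moved no other count of members by over 1.5 times, though the call of SHCBP1 after si-A1 at 24 h was lost under it. That call was kept in 11 of 23 settings, and among the 12 arrays left out singly, the call was kept only without si-A1 replicate 1, si-A1 replicate 2 or si-A2 replicate 2. RACGAP1 after si-A2 at 24 h was called in 6 of 23. At 24 h the replicate numbers did not pair the arrays (r = -0.15 to 0.19). Of the interaction for si-A2, between 0 and 1 member was called when arrays were left out, SHCBP1 being called without si-A1 replicate 4 at 24 h. The cause was not tested for any of these.

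Some differences not called changed sign. For CIT between si-A2 and si-A1 the value at 24 h was 0.02 under normexp, and between -0.50 and 0.12 with single arrays left out, the latter without si-A2 replicate 3. At 48 h it lay between -0.32 (si-A2 replicate 3 left out) and 0.73, and was -0.01 with si-A1 replicate 2 left out. For the si-A2 interaction, keeping the dim array gave -0.14 for ANLN, 0.29 for ECT2, -0.40 for RACGAP1, 0.51 for CIT and -0.56 for CEP55. With single arrays left out it lay between -0.09 (si-A2 replicate 1 at 48 h) and 0.81 for RACGAP1 and between -0.82 and 0.14 (si-A2 replicate 4 at 48 h) for CIT.

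Counts over all genes varied more. Across settings they ran from 66 to 516 (si-A1, 24 h, 216 at the main settings), 92 to 392 (si-A2, 24 h, 215), 0 to 353 (between siRNAs, 24 h, 17), 0 to 2539 (si-A1, 48 h, 1539), 0 to 425 (si-A2, 48 h, 41), 0 to 723 (between siRNAs, 48 h, 282), 0 to 145 (si-A1 interaction, 50) and 0 to 27 (si-A2 interaction, 14).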

Other observations

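The left-out si-A2 array of replicate 2 at 48 h, normalized with the other arrays of its time, read 8.20 for ECT2, 5.61 for the brighter CIT probe and 4.96 for SHCBP1, and 1.08 to 1.34 for ANLN, RACGAP1 and CEP55. The other 3 si-A2 arrays of that time read 5.68 to 6.32 for ECT2.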
